A study of Mus musculus with 24 samples.

Results

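Small noncoding RNAs of the nucleus and of the mitochondrion were measured in mouse liver RNA-seq libraries from animals on methionine-restricted (MR) or control diets. The members are the rows of the deposited count table whose gene symbol starts with Snord, Snora, Scarna, Rnu, mt-R or mt-T. They number 48 of 15161 genes: 17 C/D box small nucleolar RNAs (Snord), 9 H/ACA box small nucleolar RNAs (Snora), 2 small Cajal body RNAs (Scarna), 4 Rnu genes, 2 mitochondrial ribosomal RNAs and 14 mitochondrial transfer RNAs. All 48 symbols were assigned from the GENCODE M21 annotation through the Ensembl identifier. That annotation lists 99 Snord, 42 Snora, 9 Scarna, 22 Rnu, 2 mt-R and 22 mt-T genes, so most annotated nuclear genes of these names had no row here.

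All animals were male C57BL6/J mice of 4 months, and 6 liver libraries were made per diet. The casein MR diet used oxidized casein as its protein source and held 0.17% methionine. The casein control diet held 0.86% methionine. The elemental MR diet, with free (elemental) amino acids in place of protein, held 0.17% methionine, and the elemental control diet held 0.86%. Single libraries are named as in the labels, with E or C for the protein source, C or MR for the diet, and a number. The study compared the effect of restriction between these protein sources. No label says that the libraries came from separate animals, and the p-values therefore speak of the variation among these 24 libraries only.

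Small nucleolar RNAs guide the chemical modification or the cleavage of ribosomal RNA precursors. C/D box RNAs direct ribose methylation, a reaction that takes its methyl group from S-adenosylmethionine, the compound made from dietary methionine, and H/ACA box RNAs direct the change of uridine to pseudouridine. Most vertebrate small nucleolar RNAs lie in introns of other genes and are released when the intron is removed, while a few are transcribed alone. Small Cajal body RNAs guide the same reactions on spliceosomal RNAs. The mitochondrial genome is copied into long transcripts of both strands, and the ribosomal RNAs, transfer RNAs and mRNAs are cut out of them.

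Some of the members called in the comparisons are shown from the GENCODE M21 transcripts, so that length and marked boxes can be seen. Capitals mark TGATGA within the first 30 bases (box C), CTGA within the last 30 bases (box D), ACA just before the last 3 bases (the ACA box), or the anticodon of a mitochondrial transfer RNA. Snord118 and Snord16a hold no TGATGA within the first 30 bases, so box D alone is marked. Rnu3b3 was searched for box D alone.
Snord118: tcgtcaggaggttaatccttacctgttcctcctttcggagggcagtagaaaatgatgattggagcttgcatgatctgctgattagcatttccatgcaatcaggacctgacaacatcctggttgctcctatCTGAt
Snord16a: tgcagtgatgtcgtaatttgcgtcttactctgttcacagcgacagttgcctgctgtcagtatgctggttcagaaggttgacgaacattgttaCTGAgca
Snord37: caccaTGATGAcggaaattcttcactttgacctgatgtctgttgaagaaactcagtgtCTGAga
Snora73b: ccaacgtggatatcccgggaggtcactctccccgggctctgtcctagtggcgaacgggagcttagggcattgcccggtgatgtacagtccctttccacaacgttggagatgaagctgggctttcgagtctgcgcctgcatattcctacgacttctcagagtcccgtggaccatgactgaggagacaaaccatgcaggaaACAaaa
Snora21: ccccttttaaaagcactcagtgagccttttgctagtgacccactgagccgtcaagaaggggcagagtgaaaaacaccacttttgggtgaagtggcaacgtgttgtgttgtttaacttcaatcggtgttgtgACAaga
Rnu3b3: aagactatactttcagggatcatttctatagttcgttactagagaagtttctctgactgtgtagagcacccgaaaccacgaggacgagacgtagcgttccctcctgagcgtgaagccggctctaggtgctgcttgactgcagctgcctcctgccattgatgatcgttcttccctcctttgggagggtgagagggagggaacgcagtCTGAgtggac
mt-Tm: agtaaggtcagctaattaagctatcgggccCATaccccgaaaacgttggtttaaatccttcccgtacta
mt-Tq: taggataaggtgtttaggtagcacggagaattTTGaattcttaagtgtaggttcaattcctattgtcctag
mt-Tc: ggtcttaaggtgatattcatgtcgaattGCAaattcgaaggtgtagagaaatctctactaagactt

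Searched on the RNA strand alone, TGATGA stood in the first 30 bases of 12 of the 17 Snord members and of 72.7% of the 99 annotated Snord genes. CTGA stood in the last 30 bases of 17 of 17 Snord members and of 99% of the annotated genes. ACA before the last 3 bases was found in 8 of the 9 Snora members and in 83.3% of the 42 annotated Snora genes, against 0 of the Snord genes. The members with a row thus carry the boxes about as often as their families do. Of the 48 members, 41 are shorter than 150 nt, and the longest are mt-Rnr1 with 955 nt and mt-Rnr2 with 1582 nt.

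The libraries held 13458941 to 20762532 counted reads each, and levels are given as CPM, that is, counts scaled to the same library size in every library after TMM scaling. Of the 48 members, 28 passed the filter on low counts and entered the main test, 16 of them nuclear and 12 mitochondrial. The 20 others, 16 nuclear and 4 mitochondrial, averaged 0.169 to 0.392 CPM. The liver label held in every library: the summed level of 6 hepatocyte markers was 61704 to 69558 CPM in casein MR, 99425 to 114879 in casein control, 85411 to 92274 in elemental MR and 107298 to 117948 in elemental control livers. One casein MR library held 1659 CPM of 6 skeletal muscle markers, against at most 26.4 CPM in any other library, and 1 elemental control library held 1436 CPM of pancreas markers, against at most 71.6 CPM elsewhere. Marker sums of other cell types also differed between the diets. Summed over 4 cholangiocyte markers, levels were 14.9 to 31.3 CPM (median 18.4) in casein MR livers, against 30.1 to 45.1 CPM (median 38.4) in casein control livers. They were 12.6 to 21.8 CPM in elemental MR livers, against 23.9 to 46.6 CPM in elemental control livers, with no overlap. Summed over 5 stellate cell and fibroblast markers, levels were 331 to 446 CPM in casein MR and 367 to 424 CPM in casein control livers, and 310.2 to 365.1 CPM in elemental MR and 365.7 to 423.8 CPM in elemental control livers. Summed over 5 erythroid markers, the medians were 1710.01 CPM in casein MR and 2746 CPM in casein control livers, and 2787 CPM in elemental MR and 5970 CPM in elemental control livers, and both pairs overlapped. The part of this tissue make-up in the results was not tested. In bulk tissue, fewer cells of a type and less RNA per cell cannot be told apart.

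Nuclear small RNAs were higher in casein MR than in casein control livers. In the main test, edgeR's quasi-likelihood test with Benjamini-Hochberg adjustment over 13441 genes, 10 of the 16 nuclear members tested were called higher and 0 lower at an adjusted p under 0.05, while 10.6% of all genes were called higher. Of those 28 members, 5 (Rnu11, Snora21, Snord35a, Snord37 and Snord49b) passed the filter only with the casein MR libraries, so the count with no filter is given too. It is not free of selection, because no row of the deposited table held fewer than 72 reads over the 24 libraries. A member can have a row mainly through its highest group. Snora5c, with 72 reads, averaged 0.376 CPM in casein MR livers, against 0.0311 to 0.153 CPM in the other groups. With no filter, 19 of the 32 nuclear members were called higher and 0 lower, against 10.3% of all 15161 genes called higher. By class these were 11 of 17 C/D box, 6 of 9 H/ACA box, 1 of 2 Cajal body and 1 of 4 Rnu RNAs. The median log2 fold change of the 32 was 1.56, against 0.02 for all genes. Leaving out each casein library in turn gave 15 to 20 nuclear members called higher with no filter. Without the casein MR library that held muscle markers the count was 18, and without the library with the lowest level of 10 of the 16 tested nuclear members in its group it was 20.

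With elemental amino acids the same members did not pass the test. In elemental MR against elemental control livers, 0 of the 16 nuclear members tested were called by edgeR in either direction, while 6.78% of all genes were called higher and 6.64% lower. At an unadjusted p under 0.05, 3 nuclear members were higher. DESeq2 and limma-voom each called 1, Snord118, with adjusted p of 0.0473 and 0.0497. With no filter, 0 of 32 were called, against 6.07% of all genes called higher and 5.67% lower, and their median log2 fold change was 0.38. The count depended on single libraries: without library E_MR_3416, which held the lowest level of 11 of the 16 nuclear members in its group, edgeR called Scarna17 (log2 fold change 0.57 ± 0.18 SE, adjusted p = 0.042) and Snord118 (0.55 ± 0.16, adjusted p = 0.0261). Without library E_C_3418, the highest of its group for 8 of the 16, it called Snord118 and Rnu3b3, and without library E_MR_3420 it called Scarna17.

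Small nucleolar RNAs with genes of their own gave the bulk of the nuclear counts. Snord13, a C/D box RNA with a gene of its own that is needed for a base modification of the small-subunit ribosomal RNA, took 79.7% of all counts of the 32 nuclear members. Its lowest, median and highest values were 245, 398 and 474 CPM in casein MR livers, against 159, 188 and 220 CPM in casein control livers. It ran at 201, 381 and 412 CPM in elemental MR livers, and at 242, 299.5 and 437 CPM in elemental control livers. Every casein MR library thus lay above every casein control library, whereas the elemental groups overlapped over most of their range. The log2 fold change was 1.04 ± 0.17 (SE, edgeR adjusted p = 2.47e-05) with casein and 0.10 ± 0.16 (edgeR adjusted p = 0.753) with elemental amino acids, 6 libraries per group. The difference between these effects was 0.94 ± 0.23 (edgeR adjusted p = 0.0244), a comparison in which 3 of 28 members and 0.781% of all genes were called higher. That call was lost in 3 of 24 fits that left out 1 library (C_MR_3412, E_C_3418 or E_C_3428), with an adjusted p of up to 0.0574.

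Snord118, the U8 RNA needed for maturation of the large-subunit ribosomal RNA, also has no host gene in the annotation. It ran at 31.6, 47.7 and 52.7 CPM (lowest, median and highest) in casein MR livers, against 16.9, 21.5 and 27.4 CPM in casein control livers, and the groups did not overlap. It ran at 31.35, 50.5 and 59.5 CPM in elemental MR livers, against 23.99, 34.65 and 44.1 CPM in elemental control livers, which overlapped. The log2 fold change was 1.01 ± 0.17 with casein (edgeR adjusted p = 5.18e-05) and 0.45 ± 0.17 with elemental amino acids (edgeR adjusted p = 0.0721). The difference between the effects, 0.56 ± 0.24, did not pass the test (edgeR adjusted p = 0.298). Snord104, the third of the abundant C/D box RNAs, stayed within a narrow range: 13.3 to 15.6 CPM in casein MR, 9.70 to 17.5 in casein control, 13.5 to 17.5 in elemental MR and 9.01 to 16.1 in elemental control livers. It was not called with casein (0.17 ± 0.13, edgeR adjusted p = 0.38) or with elemental amino acids (0.28 ± 0.13, adjusted p = 0.158).

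Scarna17, a Cajal body guide RNA with no host gene in the annotation, had the smallest p of all members in the casein comparison. Its values were 5.96, 7.02 and 8.66 CPM in casein MR livers, against 1.49, 2.12 and 3.08 CPM in casein control livers. They were 4.11, 6.14 and 9.58 CPM in elemental MR livers, against 3.26, 4.26 and 6.09 CPM in elemental control livers. Every casein control library stood below every library of the 3 other groups. The log2 fold change was 1.74 ± 0.20 with casein (edgeR adjusted p = 1.8e-07) and 0.48 ± 0.19 with elemental amino acids (edgeR adjusted p = 0.0924). The effects differed by 1.26 ± 0.27 (edgeR adjusted p = 0.00852), and this call held in each of the 24 fits that left out 1 library. Scarna2, the other Cajal body RNA, ran at 0.908 to 3.78 CPM in casein MR and 0.811 to 3.68 CPM in casein control livers and was not called (0.30 ± 0.38, edgeR adjusted p = 0.643).

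**Figure D1:**
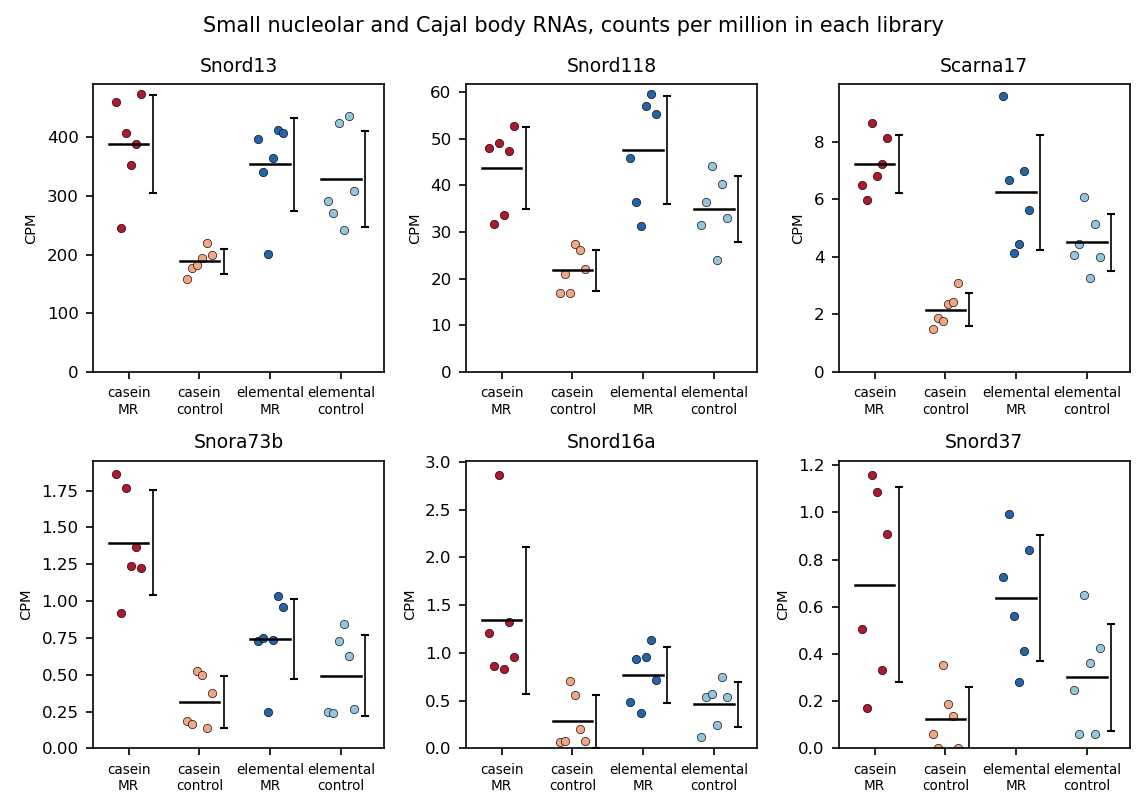
Level of 6 nuclear members in each library, in CPM on a linear axis, for the 4 diet groups. Points are libraries, black bars the group mean, and whiskers beside them ±1 SD (n = 6), where a whisker that would pass below 0 is not drawn further. Casein control livers (light red) have the lowest mean in every panel, and in the panels of Snord13, Snord118, Scarna17, Snora73b and Snord16a every casein MR library lies above every casein control library.

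Guide RNAs lying within other genes were far less abundant, mostly with fewer than 50 reads per library, and most showed the same direction. Snora73b, a copy of the U17 RNA that is needed for processing of the small-subunit ribosomal RNA, ran at 0.918, 1.30 and 1.86 CPM in casein MR livers, against 0.138, 0.281 and 0.528 CPM in casein control livers. These groups did not overlap, and the log2 fold change was 2.10 ± 0.37 (edgeR adjusted p = 0.000103). In elemental MR livers Snora73b ran at 0.249 to 1.03 CPM, against 0.240 to 0.846 CPM in elemental control livers (0.62 ± 0.37, edgeR adjusted p = 0.305). Snora21, a guide on the large-subunit ribosomal RNA, ran at 0.425, 0.732 and 2.02 CPM in casein MR livers, against 0, 0.219 and 0.624 CPM in casein control livers. These groups overlapped, and its call (1.65 ± 0.49, edgeR adjusted p = 0.0139) was lost without library C_MR_3412, which held the highest value (1.25, edgeR adjusted p = 0.0634). Snora30 was the most abundant H/ACA member and was not called (0.22 ± 0.29 with casein, edgeR adjusted p = 0.666).

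Among the C/D box guides, Snord16a directs methylation of the small-subunit ribosomal RNA. Snord16a ran at 0.826, 1.08 and 2.87 CPM in casein MR livers, against 0.0622, 0.144 and 0.704 CPM in casein control livers. Its groups did not overlap, and the log2 fold change was 2.14 ± 0.48 (edgeR adjusted p = 0.00128). Snord37, a guide on the large-subunit ribosomal RNA, ran at 0.172, 0.706 and 1.16 CPM in casein MR livers, against 0, 0.100 and 0.352 CPM in casein control livers (2.32 ± 0.60, edgeR adjusted p = 0.00521). Snord35a ran at 0.401 to 0.958 CPM in casein MR and 0.0587 to 0.436 CPM in casein control livers (1.59 ± 0.48, edgeR adjusted p = 0.0147). Snord55 ran at 0.688 to 3.17 CPM in casein MR and 0.405 to 1.5 CPM in casein control livers (1.26 ± 0.40, edgeR adjusted p = 0.0226). Those 3 RNAs overlapped between the groups, and the call of Snord55 was lost in 3 of 12 fits that left out a library (C_MR_3425, C_C_3413 or C_C_3421), with an adjusted p of up to 0.0814. Snord89 was the one nuclear member with a negative estimate, 1.95 to 7.14 CPM in casein MR and 2.56 to 12.6 CPM in casein control livers (-0.39 ± 0.33, edgeR adjusted p = 0.452).

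Of the Rnu genes, Rnu3b3 encodes a copy of the U3 RNA, which is needed for the first cleavages of the ribosomal RNA precursor. It ran at 0.330, 0.685 and 1.53 CPM in casein MR livers, against 0.0587, 0.156 and 0.435 CPM in casein control livers, and the groups overlapped. The log2 fold change was 2.08 ± 0.56 (edgeR adjusted p = 0.00691). The U3 genes are near-identical copies, so the share of reads given to this copy is uncertain. Rnu11, an RNA of the minor spliceosome, ran at 0.172 to 1.16 CPM in casein MR and 0.162 to 0.435 CPM in casein control livers and was not called (1.19 ± 0.48, edgeR adjusted p = 0.0742).

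A further 9 nuclear RNAs were called higher in casein MR once no filter was set, Snora28, Snora57, Snora5c, Snora68, Snord11, Snord42a, Snord59a, Snord83b and Snord87. Snord83b had 7 to 23 reads per casein MR library, against 1 to 5 per casein control library (2.03 ± 0.41, edgeR adjusted p = 0.000512). Snord11 had 42 reads over the 6 casein MR libraries, against 0 in the casein control libraries. Against a floor of 3 reads over that group it was at least 10.8-fold higher. The estimates of the other 8 ran between 1.52 and 3.25. Over all 32 nuclear members, 9 were higher in every casein MR library than in any casein control library, against 4.39% of all genes: Scarna17, Snora57, Snora73b, Snord11, Snord118, Snord13, Snord16a, Snord59a and Snord83b. None of the 32 showed such a separation between the elemental MR and the elemental control group, against 2.91% of all genes that were higher and 3.23% that were lower.

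**Figure D2:**
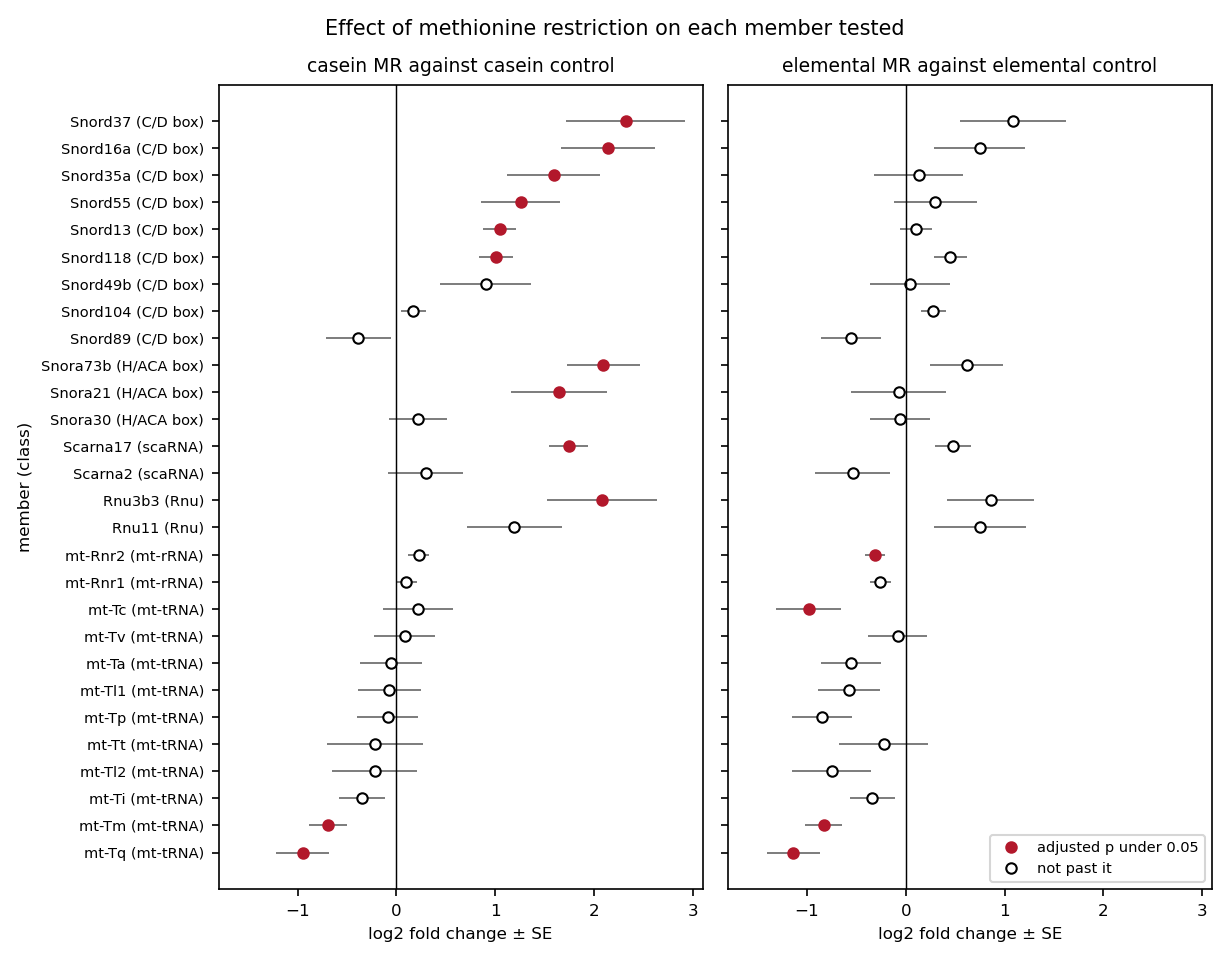
Log2 fold change of each of the 28 members tested, with its standard error, for casein MR against casein control (left) and elemental MR against elemental control (right). Filled red points passed an adjusted p of 0.05 in edgeR: 10 nuclear members to the right of 0 with casein and none with elemental amino acids, and 2 and 4 mitochondrial members to the left of 0.

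Host genes moved much less than the RNAs within them. Of the 32 nuclear members, 23 lie on the same strand within an annotated gene, and the tested host genes of 21 of them are described here. The host estimates with casein ran between 0.03 and 0.39 on the log2 scale over 20 host genes. Among these, 4 were called higher and 0 lower, against 10.6% and 12.7% of all genes. Of the 21 small RNAs, 19 had a larger estimate than their host in casein MR against casein control. With no filter 13 were called higher, against 10.3% of all genes. For example, Snord16a rose by 2.14 while its host Rpl4, a ribosomal protein gene, had 0.19 ± 0.08 (edgeR adjusted p = 0.0922). Snord37 lies in an intron of Eef2, the translation elongation factor gene, which had 0.03 ± 0.06 (edgeR adjusted p = 0.754). Snora73b lies within Snhg3, a noncoding host gene, which had 0.13 ± 0.10 (edgeR adjusted p = 0.399), and within Rcc1 (0.22 ± 0.12, adjusted p = 0.228). Gm17300 lies on the opposite strand there, so its reads may be mixed in. Rpl13a, host of Snord35a, was called at 0.29 ± 0.10 (edgeR adjusted p = 0.0304), and Rpl23, host of Snora21, had 0.20 ± 0.10 (adjusted p = 0.17). In elemental MR livers 11 of the 20 hosts were called higher, against 6.78% of all genes, with estimates between 0.02 and 0.48. None of the small RNAs within them passed the test there. Rpl13a had 0.39 ± 0.10 there (edgeR adjusted p = 0.00687), while Snord35a had 0.13 ± 0.45 (edgeR adjusted p = 0.9). A count per gene does not tell a mature small RNA from an unspliced host transcript that runs through it. Snord16a, Snord66, Snora28, Snora2b, Snora33, Snora5c and Snora68 also overlap an annotated exon of their host, so reads from that exon may be mixed in.

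**Figure D3:**
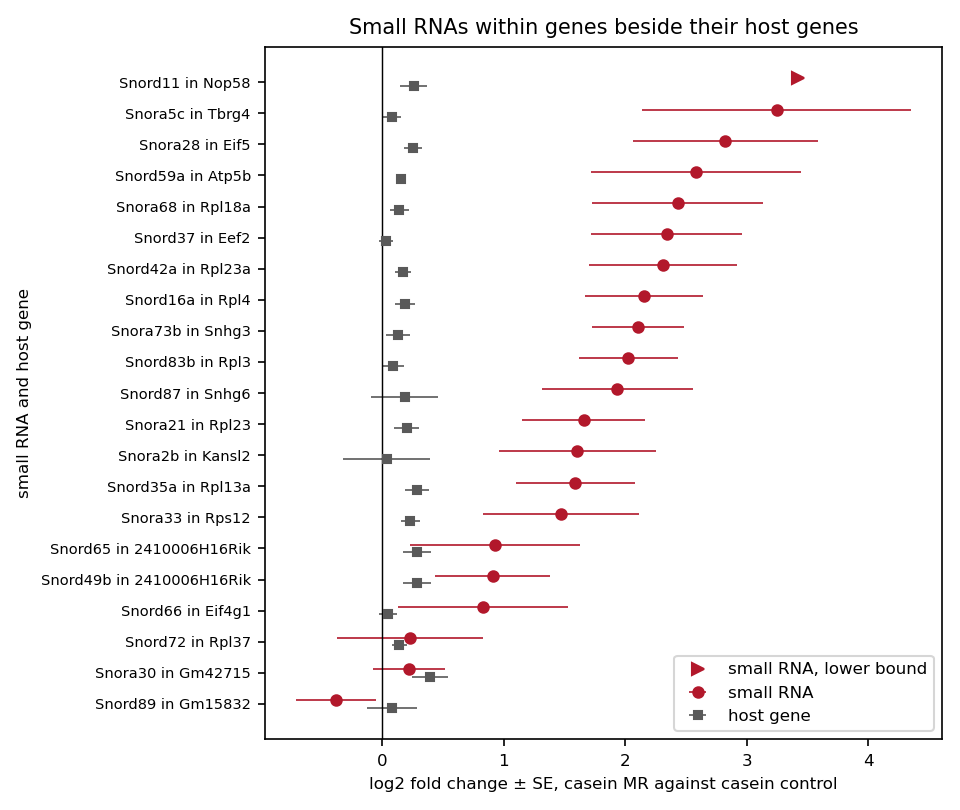
Log2 fold change in casein MR against casein control of 21 small RNAs (red circles, fit with no filter) and of the genes they lie in (grey squares, main test), with standard errors. The host genes lie between 0.03 and 0.39, while 19 of the 21 small RNAs lie further to the right. The red triangle is the lower bound of Snord11, whose casein control libraries are all at 0.

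Mitochondrial ribosomal RNAs were the most abundant members and made up 99.3% of the counts of the 16 mitochondrial members. Per kilobase of length, mt-Rnr2 averaged 9672 CPM and mt-Rnr1 5388 CPM over the 24 libraries, against 3027 CPM for Snord13. mt-Rnr2, the large-subunit ribosomal RNA, ran at 12729, 15169 and 16174 CPM in casein MR livers, against 9727, 12692 and 14357 CPM in casein control livers. It ran at 11348, 16002 and 17173 CPM in elemental MR livers, against 16231, 18912 and 21397 CPM in elemental control livers. Both pairs overlapped. With casein the log2 fold change was 0.22 ± 0.10 (edgeR adjusted p = 0.122) and with elemental amino acids -0.32 ± 0.10 (edgeR adjusted p = 0.0406). The effects differed by 0.54 ± 0.14 (edgeR adjusted p = 0.0441), but both calls were fragile: the elemental one was lost in 7 of 12 fits that left out 1 library (adjusted p up to 0.112) and the difference in 16 of 24 (up to 0.089). With raw library totals the elemental estimate was -0.18 (edgeR adjusted p = 0.234).

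mt-Rnr1, the small-subunit ribosomal RNA, ran at 4025 to 5243 CPM in casein MR, 3540 to 5007 CPM in casein control, 3838 to 6197 CPM in elemental MR and 5341 to 7456 CPM in elemental control livers. It was called in neither restriction comparison (0.10 ± 0.11 with casein, edgeR adjusted p = 0.568, and -0.26 ± 0.11 with elemental amino acids, adjusted p = 0.113). The ratio of mitochondrial ribosomal RNA to mitochondrially encoded mRNA counts was 0.216 ± 0.0333 in casein MR livers and 0.125 ± 0.0232 in casein control livers (SD, n = 6), with no overlap (0.171 to 0.253 and 0.0856 to 0.148). It was 0.208 ± 0.0332 in elemental MR livers and 0.193 ± 0.0460 in elemental control livers (SD, n = 6), with overlap. Of the 8 mRNAs in that ratio, 5 were called lower in casein MR livers, against 12.7% of all genes, and 7 in elemental MR livers, against 6.64%. None was called higher, and with casein 1 of the 8 had a positive estimate. mt-Cytb, the cytochrome b mRNA, fell with either protein source, at -0.71 ± 0.08 (edgeR adjusted p = 2.38e-07) and -0.42 ± 0.08 (adjusted p = 0.000716).

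Of the mitochondrial transfer RNAs, mt-Tm and mt-Tq fell under restriction with either protein source. mt-Tm, which carries methionine, ran at 15.1, 30.2 and 44.2 CPM in casein MR livers, against 41.3, 46.4 and 54.6 CPM in casein control livers. It ran at 27.6, 34.9 and 48.5 CPM in elemental MR livers, against 43.6, 62.9 and 87.6 CPM in elemental control livers. Only the highest MR library of each pair reached into the range of its control group. The log2 fold changes were -0.69 ± 0.19 with casein (edgeR adjusted p = 0.00799) and -0.83 ± 0.19 with elemental amino acids (adjusted p = 0.00338). mt-Tq, which carries glutamine, ran at 8.2, 17.9 and 25.3 CPM in casein MR livers, against 18.2, 36.3 and 47.8 CPM in casein control livers. It ran at 11.4, 20.9 and 34.3 CPM in elemental MR livers, against 39.85, 46.0 and 76.9 CPM in elemental control livers, with no overlap in the elemental pair. Its log2 fold changes were -0.95 ± 0.27 (edgeR adjusted p = 0.0106) and -1.14 ± 0.27 (adjusted p = 0.00441). Both calls of both RNAs held in all 12 fits that left out 1 library. With raw library totals in place of TMM scaling, the casein call of mt-Tm was lost (-0.44, edgeR adjusted p = 0.0576). The casein effect minus the elemental effect was 0.14 ± 0.27 for mt-Tm and 0.19 ± 0.38 for mt-Tq, with 95% intervals of -0.41 to 0.69 and -0.59 to 0.96.

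These RNAs lie side by side between the genes of mt-Nd1 and mt-Nd2, with mt-Tq on the opposite strand, and together they gave 55.2% of the mitochondrial transfer RNA counts. mt-Nd2, an mRNA of respiratory complex I, fell by 0.52 on the log2 scale in casein MR livers (edgeR adjusted p = 4.57e-06) and by 0.57 in elemental MR livers (adjusted p = 3.95e-06). mt-Nd1 fell by 0.34 in elemental MR livers (adjusted p = 0.00124) and had -0.11 ± 0.07 in casein MR livers (adjusted p = 0.271). Counts of mature transfer RNAs and of longer transcripts that run through them cannot be told apart, and the strand of the libraries is not given in the sources used here.

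mt-Tc, which carries cysteine, was called in elemental MR livers alone (-0.98 ± 0.33, edgeR adjusted p = 0.0462), at 0.809, 1.26 and 1.91 CPM, against 1.09, 2.09 and 5.63 CPM in elemental control livers. That call was lost in 9 of 12 fits that left out 1 library (adjusted p up to 0.202), and without library E_C_3428 the estimate was -0.60. With casein mt-Tc had 0.22 ± 0.35 (adjusted p = 0.722). The other 7 mitochondrial transfer RNAs tested, among them mt-Tp and mt-Ta, were called in neither pair. With no filter, 2 of 14 transfer RNAs were called lower in each pair and 0 higher, against 11% of all genes called lower with casein and 5.67% with elemental amino acids. All 14 had a negative estimate with elemental amino acids, against 9 with casein. Lower calls made up 12.7% of all genes tested with casein and 6.64% with elemental amino acids.

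**Figure D4:**
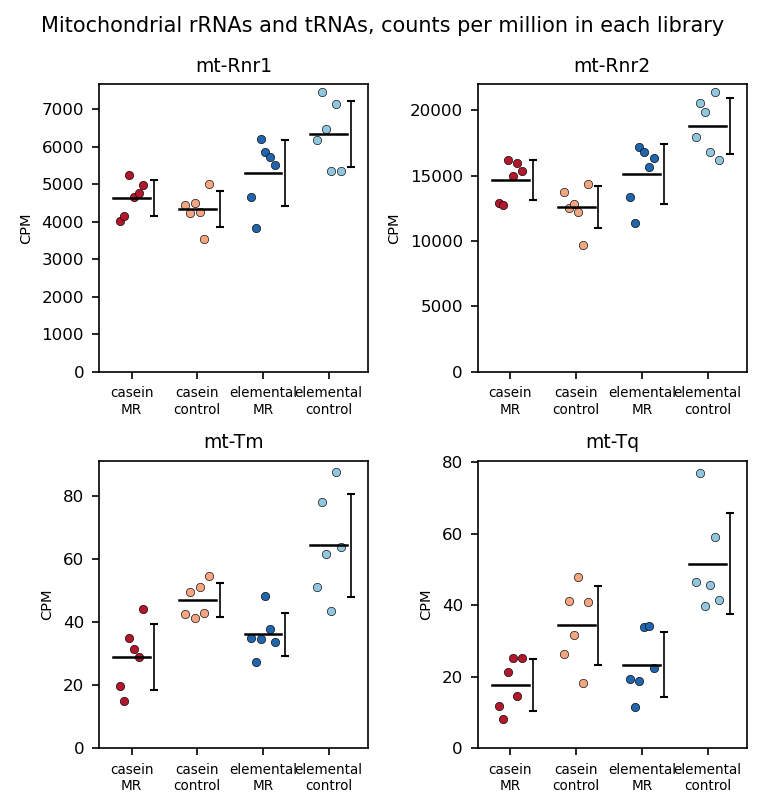
Level of both mitochondrial ribosomal RNAs and of 2 transfer RNAs in each library, in CPM on a linear axis. Points are libraries, black bars group means and whiskers ±1 SD (n = 6). Elemental control livers lie highest in each panel, and mt-Tm and mt-Tq lie lower in each MR group than in its control group.

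The control diets differed from each other in few genes, and members were among them. Between casein control and elemental control livers edgeR called 14 of 13441 genes (0.104%), and 4 of these were members, all lower in casein control livers, as were 0.0744% of all genes. mt-Rnr2 had -0.58 ± 0.10 (edgeR adjusted p = 0.0168), mt-Rnr1 -0.55 ± 0.11 (adjusted p = 0.0344), Scarna17 -1.05 ± 0.20 (adjusted p = 0.0344) and Snord13 -0.81 ± 0.17 (adjusted p = 0.0467). For each of these 4 RNAs every casein control library lay below every elemental control library, a separation that 0.29% of all genes showed. The calls stood near the threshold: leaving out 1 library gave 0 to 4 members called, with 0 left without library E_C_3428 and 3 without the elemental control library that held pancreas markers. Summed over 5 erythroid markers, all with a row, casein control livers held 1991 to 3670 CPM (median 2746), against 3089 to 7457 CPM (median 5970) in elemental control livers, and the part of blood in these results was not tested. The casein control libraries are the same ones that served as controls for casein MR, so low values in them enter both comparisons. Over all 32 nuclear members, casein control livers had the lowest mean of the 4 groups for 26 and casein MR livers the highest for 23. Elemental control livers had the highest mean for 16 of the 16 mitochondrial members. This order of the groups was not counted over all genes.

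Between the restricted diets, casein MR against elemental MR, 0 of the 28 members were called by edgeR, while 6.5% of all genes were. At an unadjusted p under 0.05 there were 3, and DESeq2 and limma-voom called 0. Snord13 differed by 0.13, with a 95% interval of -0.20 to 0.47, Scarna17 by 0.21 (-0.16 to 0.58), and mt-Rnr2 by -0.04 (-0.25 to 0.17).

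Genes whose products act on these RNAs were read against all genes tested, of which 10.6% were called higher and 12.7% lower with casein, and 6.78% higher and 6.64% lower with elemental amino acids. Of 18 proteins of the small nucleolar RNA particles and their assembly, 1 was called higher in casein MR and 2 in elemental MR livers, with 0 lower. They were Dkc1, the pseudouridine synthase (0.18 ± 0.06 with casein, edgeR adjusted p = 0.0303), and, with elemental amino acids, Nop58, a core C/D box protein (0.48 ± 0.11, adjusted p = 0.00362), and Fbl, the methyltransferase (0.45 ± 0.13, adjusted p = 0.0177). Of 21 genes of the Cajal body and spliceosomal particle assembly, 2 were called higher in casein MR and 1 in elemental MR livers, led by Lsm10, a subunit of a histone pre-mRNA processing particle, at 0.53 ± 0.09 and 0.55 ± 0.09 (adjusted p = 0.000129 and 0.000214). Of 33 proteins of ribosomal RNA processing, 5 rose and 2 fell in casein MR and 4 rose in elemental MR livers. Npm1, nucleophosmin, rose by 0.25 ± 0.07 with casein (adjusted p = 0.00505), and Heatr1, a small-subunit processome protein, had -1.07 ± 0.25 (adjusted p = 0.00239). Medians over these lists lay between 0.01 and 0.16, against 0.01 with casein over all genes.

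A separate list held noncoding host genes of small nucleolar RNAs, and it shares Snhg3 and Snhg6 with the host genes described above. Of 16 with a row, 7 were called higher with elemental amino acids and 0 lower, while 1 was higher and 1 lower with casein, beside shares of all genes of 6.78% higher and 6.64% lower with elemental amino acids and 10.6% higher and 12.7% lower with casein. Snhg11 had 1.82 ± 0.29 with elemental amino acids (edgeR adjusted p = 7.95e-05) and 0.71 ± 0.29 with casein (adjusted p = 0.0839). Snhg9 had 0.03 ± 0.10 with elemental amino acids (adjusted p = 0.883) and -0.56 ± 0.10 with casein (adjusted p = 8.8e-05). Of 34 genes of mitochondrial transcription and RNA processing, 4 were called higher and 1 lower in casein MR, and 1 higher and 1 lower in elemental MR livers. Hsd17b10, a subunit of the enzyme that cuts the 5′ ends of mitochondrial transfer RNAs, had -0.88 ± 0.08 with casein (adjusted p = 8.15e-09) and -0.54 ± 0.08 with elemental amino acids (adjusted p = 5.23e-05). Elac2, which cuts their other ends, had 0.30 ± 0.10 with casein (adjusted p = 0.0311). Tfam, the mitochondrial transcription factor, had 0.26 ± 0.06 and 0.23 ± 0.06 (adjusted p = 0.00133 and 0.00935).

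The selection of RNA and of fragment sizes for these libraries is not given in the sources used here. Values of other short genes are given next. Among genes of at most 150 nt that are no member, 9 of 30 further small nucleolar, Cajal body or spliceosomal RNA genes were called higher in casein MR livers, against 0 of 18 genes of other kinds, such as microRNA and ribosomal RNA genes. Their median log2 fold changes lay closer together, at 0.25 and 0.17. With elemental amino acids 0 of either kind were called, and the medians were 0.04 and 0.13. Shares of all genes were 10.6% higher and 12.7% lower with casein, and 6.78% higher and 6.64% lower with elemental amino acids. The 10 mitochondrial transfer RNAs tested, of 66 to 75 nt, had 0 called higher and 2 lower with casein. With elemental amino acids they had 0 called higher and 3 lower. Of 13 further short or nonpolyadenylated RNAs with enough counts, 1 rose and 3 fell with casein and 2 fell with elemental amino acids. The one that rose was Rn7sk, a short regulator of transcription elongation (1.58 ± 0.45, edgeR adjusted p = 0.0109), and Malat1, a long nuclear RNA, had -0.41 ± 0.11 (adjusted p = 0.00545). The part of library preparation in the results was not tested.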

How the data were processed

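The labels give total RNA from mouse liver, with the aligner, counting tool, genome build, RNA selection and strand not given in the sources used here. Counts are whole reads per gene and library, as the authors deposited them. A second deposited table gives a normalized signal. Its values equalled each count over a single size factor of the library (0.745 to 1.32), and it served only as a source of gene symbols. It holds 0 columns of other samples. The members and lists were chosen with earlier results of these data known.

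Counts were tested with edgeR 4.0.16 in R 4.3.3: glmQLFit and glmQLFTest on all 24 libraries, a mean per group, TMM scaling, the filterByExpr filter and Benjamini-Hochberg adjustment over 13441 genes, called at an adjusted p under 0.05. The code was tested on simulated data. The text names members called in any of 5 comparisons, up to the 4 most abundant tested members and the smallest p per class, their hosts, and up to 4 genes per list. The annotation, host genes, lengths and sequences are from GENCODE M21 (GRCm38). A host is the shortest gene of the table that spans a member on the same strand. DESeq2 1.42.0, limma 3.58.1 (voom), other scalings, filters and thresholds, the compared groups alone, and leaving out each library were alternatives. The count with no filter and each casein library left out, the raw library totals and the split by gene length were added after seeing the data. Depth of 13458941 to 20762532 counts limits members near 0.2 CPM to a few reads per library. The host gene of 1 member and the sequence of another are not reported here.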

Additional observations from a re-analysis of the deposited data

Results flagged for a closer look

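A total of 3 members had a restriction effect that differed between the protein sources by the test of the difference itself (edgeR, casein effect minus elemental effect on the log2 scale, adjusted p under 0.05): Scarna17 with 1.26, Snord13 with 0.94 and mt-Rnr2 with 0.54. Each of these differences uses the casein control libraries, which were also low against the elemental control libraries.

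Single libraries stood far from the rest of their group in 5 of the 112 member groups of 6 libraries examined, and chance flags about 1 in 20. Snora21 was at 2.02 CPM in library C_MR_3412, against 0.908 in the next library. Snord16a was at 2.87 CPM in library C_MR_3425, against 1.32 in the next. Snord55 was at 1.5 CPM in library C_C_3437, against 0.691 in the next. In library E_MR_3416, Snord13 was at 201 CPM, against 340 in the next library, and Snord55 was at 0.312 CPM, against 0.846 in the next.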

How the results depend on the processing

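With casein, 12 members were called. The count was 21 with no filter and 6 with at least 1 CPM required in every library of a group. It was 11 to 15 when libraries were left out one at a time. In all scalings, DESeq2 and limma-voom, 10 of 10 nuclear calls remained. These fits used the main filter, which Snora21, Snord35a and Snord37 did not pass without the casein MR libraries. Such fits cannot test that selection. Snora21, Snord35a, Snord37 and Rnu3b3 had a value under 7 alternatives, against 9 for Snord13. The edgeR calls of Snora21, Snord35a, Snord55 and mt-Tq did not reach an adjusted p under 0.01. With elemental amino acids, 4 were called: 2 with no filter, 2 at an adjusted p under 0.01, and 2 to 5 with a library left out. For the difference of the effects 3 were called: 1 at an adjusted p under 0.01, and 1 to 3 with a library left out. Between the control diets 4 were called: 1 by limma-voom, 0 at an adjusted p under 0.01, 2 with the compared groups alone, and 0 to 4 with a library left out. Between the MR diets 0 were called: 1 with raw library totals, and 0 to 2 with a library left out. Raw library totals shifted the median of all genes by 0.27 with casein and 0.14 with elemental amino acids, and gave 15 higher and 1 lower, and 3 higher and 2 lower. Summed over a class per raw library total, mitochondrial ribosomal RNA differed by 0.45 and C/D box RNA by 1.24 (log2, casein MR against casein control), and by 0.19 and 0.99 per TMM-scaled total. Snord13 made up most of the C/D box sum, with a mean of 388 of 460 CPM in casein MR livers. In casein control livers it held 188 of 232 CPM. The cause of these changes was not tested. No paired analysis was possible because the library numbers are not shared between groups.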

Other observations

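Small RNA genes whose symbols fall outside the name rule were examined in the same fits. Of 63 other genes annotated as small nucleolar, Cajal body or spliceosomal RNA, 37 passed the filter, and 13 of them were called higher and 0 lower in casein MR against casein control livers (edgeR), against 10.6% of all genes called higher and 12.7% lower. Their median log2 fold change was 0.28, and 6 of the 37 had a negative estimate. With no filter, 16 of the 63 were called higher and 1 lower with casein, against 10.3% and 11% of all genes, and 1 was called higher and 0 lower in elemental MR against elemental control livers, against 6.07% and 5.67%. With no filter, 6 of the 63 were higher in every casein MR library than in any casein control library, against 4.39% of all genes.

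The ratio of mt-Rnr2 to mt-Rnr1 counts was 3.17 ± 0.116 in casein MR livers and 2.90 ± 0.120 in casein control livers (SD, n = 6). It was 2.86 ± 0.0954 in elemental MR livers and 2.98 ± 0.134 in elemental control livers (SD, n = 6). The casein groups overlapped only between 3.07 and 3.11.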
